A study of Mus musculus with 19 samples.

Results

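Atf4 and 9 genes of the integrated stress response were followed in 19 RNA-seq libraries of differentiating mouse embryonic stem (ES) cells that carried a short hairpin RNA. The 10 genes, Atf4, Trib3, Sesn2, Ddit3, Asns, Chac1, Slc7a11, Nupr1, Ddit4 and Cebpb, were taken by name as 10 of the 38424 entries of the deposited expression table, and each name occurred in 1 entry. The rule used only their names, but the genes were chosen with earlier results of these data known. In 46c ES cells kept for 4 days in N2B27, a serum-free medium, with 5 nM retinoic acid (RA), hairpins against the long non-coding RNAs Nr2f1as (2 libraries), Sox21os (1 library) and Pou3f3os (2 libraries) were set against the same 2 control-hairpin libraries. In the other experiments, ES cells of strain 129S4/SvJae were differentiated by withdrawing leukemia inhibitory factor (LIF) in medium with serum and added non-essential amino acids. There, hairpins against Evx1as (2 libraries, CJ7 cells, day 4), EVX1 (2 libraries, CJ9 cells, day 4), Fendrr (2 libraries, CJ9 cells, day 5) and Lhx1os (1 library, CJ9 cells, day 6) were set against 1, 1, 2 and 1 control-hairpin libraries of the same line and day.

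The integrated stress response begins when a kinase phosphorylates the translation factor eIF2, which lowers protein synthesis in general while the transcription factor ATF4 is translated more. ATF4 binds composite elements in its target genes as a dimer with C/EBP proteins and raises genes for amino acid synthesis and transport, for glutathione metabolism and for the restraint of mTORC1, the kinase complex that drives growth. Much of the control of ATF4 lies in translation and is not seen in RNA-seq, which reads only the mRNA.

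Levels are in FPKM, which counts fragments relative to the size of the library and to the length of the transcript. Library totals lay between 559050 and 655315 FPKM, 12255 to 12825 entries reached 1 FPKM, and depth estimated from the steps between low values differed from the first library by factors of 0.97 to 1.326. Replicates of a group correlated at r = 0.988 to 0.996 across entries. Of the 7 hairpin targets, 5 had an entry named by the table or by a RefSeq synonym. Evx1as was listed at 0.354 and 0.290 FPKM in its knockdown libraries and 1.66 FPKM in the control. Evx1 had 30.2 and 37.1 FPKM in the shEVX1 libraries against 53.9 FPKM in the control, and Fendrr 0.358 and 0.0768 FPKM in the shFendrr libraries against 1.10 and 1.49 FPKM in the controls. Lhx1os was at 0 in the knockdown library and 0.0883 FPKM in its control. Pou3f3os had 2.40 and 4.13 FPKM in the libraries labelled shPou3f3os and 5.20 and 1.98 FPKM in the RA controls, so it was not lower in both, and results for these libraries rest on their labels. No entry was named for Nr2f1as or Sox21os. Whether replicates were separate cultures or separate hairpins is not stated in the labels, so every p-value speaks of the spread among these libraries alone, which may be technical.

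Because ATF4 acts through a C/EBP-ATF response element, the proximal promoters were searched for the letters TGATGNAA on either strand. RefSeq windows (build GRCm38.p6) reached from 250 bases before to 50 bases after an annotated gene start and were found for all 10 genes. The motif occurred in 5 of the 10 windows, against 3.97% of 32851 RefSeq windows. The genes were chosen as members of this pathway, so setting these shares side by side is no test. The window of Slc7a11, which differed from the others in RA, lies at an annotated start inside its RefSeq span and held the letters too. The stretches around each match follow, 5′ to 3′ on the gene's strand, with the match in capitals. TTNCATCA is the same motif read from the other strand.
Trib3, chr2:152344028-152344057, minus strand: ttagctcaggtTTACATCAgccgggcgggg
Asns, chr6:7693214-7693243, minus strand: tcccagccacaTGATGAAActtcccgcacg
Chac1, chr2:119351038-119351067, plus strand: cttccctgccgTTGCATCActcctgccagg
Slc7a11, chr3:50443642-50443690, minus strand: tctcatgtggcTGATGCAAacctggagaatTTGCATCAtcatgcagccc
Nupr1, chr7:126625562-126625591, minus strand: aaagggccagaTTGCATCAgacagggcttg
The match began 14 bases after the start in Trib3 and began at -23 in Asns, -193 in Chac1 and -110 in Nupr1, counted from the annotated start along the gene's strand. Slc7a11 held 2 matches, at -66 and -47, on opposite strands. The windows of Atf4, Sesn2, Ddit3, Ddit4 and Cebpb did not hold these letters. A match is a description of the sequence, and ATF4 binding was not measured.

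In the RA cultures, Atf4 and 4 of its targets, Trib3, Sesn2, Ddit3 and Chac1, were lower in all 5 knockdown libraries than in both controls, whichever lncRNA the hairpin was aimed at, while Slc7a11 was higher in all 5. Asns, Nupr1, Ddit4 and Cebpb overlapped with the controls. For comparison, all 5 knockdown libraries lay below both controls for 12.6% of the 14942 entries tested and above both for 15.8%. The 3 knockdowns share the same 2 control libraries, so a shift in those controls would appear in all 3, and agreement between the knockdowns is not independent. In bulk RNA, fewer cells of a type and less RNA per cell cannot be told apart.

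**Figure D1:**
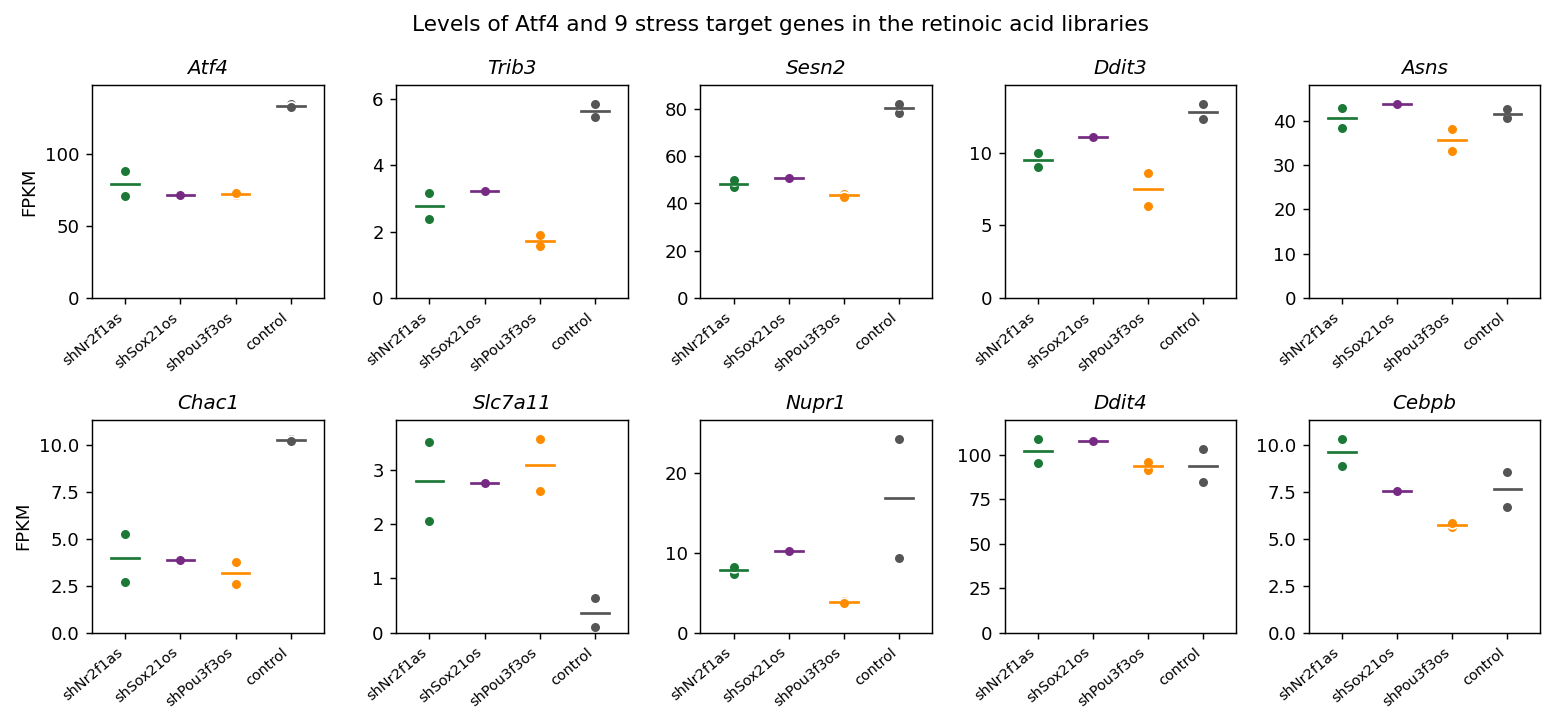
Levels of the 10 genes in the retinoic acid libraries, in FPKM on axes that start at 0, with 1 panel per gene, 1 point per library and a bar at the group mean. Atf4 lies between 70.5 and 88.3 FPKM in the 5 knockdown libraries and at 135 and 133 FPKM in the controls, whereas Slc7a11 lies between 2.06 and 3.56 FPKM in the knockdown libraries and at 0.640 and 0.0933 FPKM in the controls.

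Changes were tested with limma's moderated test on log2(FPKM + 1), two-sided, adjusted by Benjamini-Hochberg over all entries tested with a threshold of 0.05. This scale understates the change of genes at low levels. All 10 genes passed the expression filter. With shPou3f3os, 5 of the 10 genes passed the test, 4 lower and 1 higher, where 2.32% of all entries passed (239 higher and 107 lower). With shNr2f1as, 2 of the 10 passed, Atf4 lower and Slc7a11 higher, where 0.676% of all entries passed. With shSox21os, which has 1 library and is assumed to vary like the other groups, 0 of 10 passed, where 0.0669% of all entries did, and 4 had an unadjusted p under 0.05, as did 11.4% of all entries. The median change over the 10 genes was -0.79 with shPou3f3os, -0.56 with shNr2f1as and -0.36 with shSox21os, against 0.04, 0.04 and 0.03 over all entries tested. Without RA control replicate 2 the median was -0.29 with shNr2f1as, and with shSox21os it was -0.02, with 5 genes higher and 5 lower. All 7 of these calls were lost when the RA libraries were modelled without the others (adjusted p 0.163 to 0.185) and when RA control replicate 2 was left out (adjusted p 0.0710 to 0.229); those with shPou3f3os were also lost without either shPou3f3os replicate, Atf4 with shNr2f1as without shNr2f1as replicate 1, Slc7a11 with shNr2f1as without either shNr2f1as replicate, and all but Atf4 with shPou3f3os when no expression filter was used. The shPou3f3os split of calls became 348 higher and 76 lower after rescaling to a common total, and 218 higher and 195 lower after scaling by the median of ratios.

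**Figure D2:**
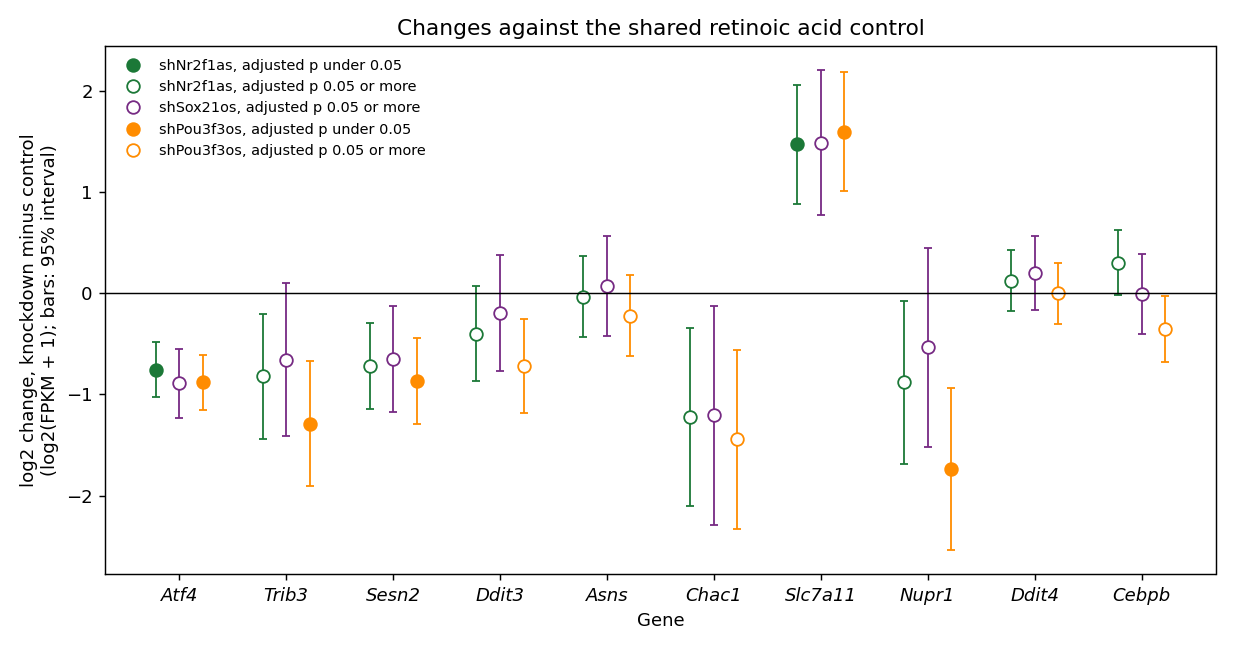
Change of each gene in the 3 retinoic acid knockdowns against their shared controls, in log2(FPKM + 1), with bars for the unadjusted 95% interval and filled points where the adjusted p was under 0.05. Slc7a11 stands between 1.47 and 1.60 above the control in all 3, and Atf4 between -0.75 and -0.89.

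Atf4 (mm9 chr15:80085614-80087971), the transcription factor of the pathway, had 70.5 and 88.3 FPKM with shNr2f1as, 71.7 with shSox21os and 71.8 and 72.7 with shPou3f3os, against 135 and 133 FPKM in the RA controls. The controls agreed closely and every knockdown library lay well below them, with shNr2f1as replicate 2 the nearest. Atf4 mRNA fell by 0.88 on the log2 scale with shPou3f3os (SE 0.13, limma adjusted p = 0.0243) and by 0.75 with shNr2f1as (SE 0.13, adjusted p = 0.0380). The shSox21os difference was as large, -0.89 (SE 0.15), but did not pass (adjusted p = 0.0784), and passed without the expression filter (adjusted p = 0.0295).

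Sesn2 and Ddit4 both restrain mTORC1, and only the Sesn2 values separated. Sesn2 (mm9 chr4:132048722-132066371), which encodes a stress-induced leucine-binding sestrin, had 46.8 and 49.7 FPKM with shNr2f1as, 50.7 with shSox21os and 44.1 and 42.7 with shPou3f3os, against 78.5 and 82.0 FPKM in the controls. The 5 knockdown libraries clustered tightly and none came near the controls. Sesn2 fell by 0.87 with shPou3f3os (SE 0.19, limma adjusted p = 0.0463), and the call ended after rescaling to a common total (adjusted p = 0.0571) or without control replicate 1 (adjusted p = 0.0508). Its differences were -0.72 with shNr2f1as (adjusted p = 0.0960) and -0.65 with shSox21os (adjusted p = 0.332). The Sesn2 entry overlaps the predicted gene Gm12981, which had at most 0.806 FPKM in the knockdown libraries and 0.948 and 1.40 FPKM in the controls.

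Ddit4 (mm9 chr10:59412423-59414518), which encodes the mTORC1 inhibitor REDD1, had 109 and 95.7 FPKM with shNr2f1as, 108 with shSox21os and 91.3 and 96.1 with shPou3f3os, against 84.9 and 103 FPKM in the controls. The shNr2f1as and shPou3f3os values overlapped with the controls and the shSox21os library lay just above them. No difference was larger than 0.20 on the log2 scale, with 95% intervals that spanned -0.30 to 0.57 (adjusted p 0.683 to 1 by limma).

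Ddit3, Trib3, Nupr1 and Cebpb encode regulators that act with or after ATF4. Trib3 (mm9 chr2:152163161-152169796), a pseudokinase that binds ATF4 and damps the response, had 2.39 and 3.17 FPKM with shNr2f1as, 3.21 with shSox21os and 1.56 and 1.89 with shPou3f3os, against 5.45 and 5.84 FPKM in the controls. The shPou3f3os libraries were the lowest of the series for this gene. Trib3 fell by 1.29 with shPou3f3os (SE 0.28, limma adjusted p = 0.0446). The differences with shNr2f1as (-0.82, adjusted p = 0.159) and shSox21os (-0.66, adjusted p = 0.504) did not pass.

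Ddit3 (mm9 chr10:126727849-126733344), which encodes the pro-apoptotic factor CHOP, had 9.02 and 9.96 FPKM with shNr2f1as, 11.1 with shSox21os and 6.36 and 8.58 with shPou3f3os, against 12.3 and 13.3 FPKM in the controls. Every knockdown library was below the controls, shSox21os only just. None of the differences passed (-0.40, -0.19 and -0.72 for shNr2f1as, shSox21os and shPou3f3os; limma adjusted p = 0.351, 0.836 and 0.0908). Ddit3 overlaps the end of Mars, and unless strand was used in counting their reads cannot be told apart there.

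Nupr1 (mm9 chr7:133766760-133768984), a small stress-induced nuclear protein gene, had 7.36 and 8.28 FPKM with shNr2f1as, 10.2 with shSox21os and 3.97 and 3.76 with shPou3f3os, against 9.38 and 24.3 FPKM in the controls. The controls differed by 2.59 times, more than for any other gene of the set except Slc7a11, and the shSox21os library lay between them. Nupr1 fell by 1.74 with shPou3f3os (SE 0.36, limma adjusted p = 0.0412). Without control replicate 2 the difference was -1.09 and the call was lost. The difference with shNr2f1as was -0.88 (adjusted p = 0.233), and -1.52 without control replicate 1 (adjusted p = 0.0307). With shSox21os it was -0.53 (adjusted p = 0.698), and 0.11 without control replicate 2.

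Cebpb (mm9 chr2:167514415-167515918), which encodes a bZIP partner of ATF4, had 8.89 and 10.3 FPKM with shNr2f1as, 7.55 with shSox21os and 5.64 and 5.82 with shPou3f3os, against 6.70 and 8.59 FPKM in the controls. Its level was above the controls in one knockdown and below them in another. The differences of 0.30, -0.01 and -0.35 for shNr2f1as, shSox21os and shPou3f3os did not pass (limma adjusted p = 0.311, 1 and 0.200).

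Asns, Chac1 and Slc7a11 serve amino acid and glutathione metabolism, and their values differed in direction. Chac1 (mm9 chr2:119176978-119180062), which degrades glutathione, had 2.72 and 5.29 FPKM with shNr2f1as, 3.89 with shSox21os and 2.59 and 3.79 with shPou3f3os, against 10.3 and 10.2 FPKM in the controls. The groups were far apart but the shNr2f1as replicates also differed from each other. The differences were -1.22, -1.21 and -1.44 for shNr2f1as, shSox21os and shPou3f3os and did not pass (SE 0.40, 0.49 and 0.40; limma adjusted p = 0.145, 0.385 and 0.0775).

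Asns (mm9 chr6:7625171-7643182), asparagine synthetase and a classical ATF4 target, had 42.9 and 38.5 FPKM with shNr2f1as, 43.7 with shSox21os and 33.1 and 38.2 with shPou3f3os, against 40.6 and 42.6 FPKM in the controls. The shNr2f1as values overlapped with the controls, the shSox21os library lay just above them and the shPou3f3os libraries just below. The differences were -0.03, 0.07 and -0.22 for shNr2f1as, shSox21os and shPou3f3os (limma adjusted p = 0.955, 0.947 and 0.535), and the 95% intervals spanned -0.62 to 0.56.

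Slc7a11 (mm9 chr3:50168858-50247535) encodes xCT, the subunit of the cystine and glutamate exchanger that brings in cystine for glutathione. It had 3.50 and 2.06 FPKM with shNr2f1as, 2.76 with shSox21os and 2.60 and 3.56 with shPou3f3os, against 0.640 and 0.0933 FPKM in the RA controls. All 5 knockdown libraries were low but clearly above the controls, where the gene was under 1 FPKM. Slc7a11 rose by 1.60 with shPou3f3os (SE 0.27, limma adjusted p = 0.0266) and by 1.47 with shNr2f1as (SE 0.27, adjusted p = 0.0433). The shSox21os difference of 1.49 (SE 0.33) did not pass (adjusted p = 0.157), but did without control replicate 1 (adjusted p = 0.0423). With a pseudocount of 0.1 in place of 1 the changes were 3.06, 2.88 and 2.92 for shPou3f3os, shNr2f1as and shSox21os, so their size depends on how the low control values are treated. The deposited Slc7a11 entry spans 78678 bases, against 134152 bases in RefSeq. The RefSeq gene, on the minus strand, reaches to chr3:50499087 in GRCm38, whereas its promoter window lies at 50443564-50443863. The motif positions given above thus count from an annotated start inside the RefSeq span.

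Slc7a11 was thus the only one of the 10 genes that passed the test upward in any RA knockdown, while each of the others that passed (Atf4, Trib3, Sesn2 and Nupr1) passed downward. It shared the promoter motif shown above with Trib3, Chac1 and Nupr1, whose levels were lower with shPou3f3os, and with Asns, whose level was close to that of the controls. The difference between Slc7a11 and the other genes was not tested as such.

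With the 2 knockdowns that have 2 libraries set against each other, shNr2f1as minus shPou3f3os, 0 of 10 genes passed the limma test, where 0.00669% of all entries did, and 2 had an unadjusted p under 0.05, as did 5.49% of all entries. The smallest adjusted p was 0.495, for Cebpb, which was 0.65 higher with shNr2f1as (95% interval 0.33 to 0.98). Nupr1 was 0.86 higher with shNr2f1as (95% interval 0.05 to 1.66, adjusted p = 0.884). Atf4 differed by 0.13 (95% interval -0.15 to 0.40) and Slc7a11 by -0.13 (95% interval -0.71 to 0.46), so a difference of moderate size between these knockdowns was not resolved. Of the 10 genes, 9 were higher and 1 lower with shNr2f1as, with a median of 0.20, against -0.02 over all entries. Without 1 library the median was 0.12 to 0.36. The shNr2f1as libraries lay above both shPou3f3os libraries for 6 genes and below both for 0, against 18.1% and 22.6% of all entries.

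Other genes of the pathway were taken from 5 lists. Of the genes for eIF2 kinases, eIF2 and eIF2B subunits and the eIF2 phosphatase, 17 were tested, and 0 passed limma's test in any of the 3 RA knockdowns. The same held for 13 bZIP partners and relatives of ATF4. Of all entries, 2.32% passed with shPou3f3os, 0.676% with shNr2f1as and 0.0669% with shSox21os, so 0 in lists this short is near the background. Among 33 further ATF4 targets of 35 listed, 30 had lower and 3 higher values with shPou3f3os, 27 and 6 with shNr2f1as and 24 and 9 with shSox21os. Their median changes were -0.35, -0.29 and -0.26, against 0.04, 0.04 and 0.03 over all entries.

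Of the 33 further ATF4 targets tested, 3 passed with shPou3f3os, or 9.09%, against 2.32% of all entries. With shNr2f1as 1 passed, or 3.03%, against 0.676%, and with shSox21os 0 passed, against 0.0669%. The targets that passed were 2 aminoacyl-tRNA synthetase genes and an amino acid transporter gene. Mars, the methionyl-tRNA synthetase, had 31.4 and 31.8 FPKM with shNr2f1as, 36.6 with shSox21os and 30.3 and 31.2 with shPou3f3os, against 47.8 and 53.4 FPKM in the controls. It fell by 0.70 with shPou3f3os (limma adjusted p = 0.0273) and by 0.66 with shNr2f1as (adjusted p = 0.0433), and it shares the overlap with Ddit3 given above. Aars, the alanyl-tRNA synthetase, had 54.3 and 57.4 FPKM with shPou3f3os, against 92.5 and 107 FPKM in the controls, and fell by 0.82 (adjusted p = 0.0288). Slc7a1, a cationic amino acid transporter, had 5.09 and 5.11 FPKM with shPou3f3os, against 10.7 and 8.62 FPKM in the controls, and fell by 0.80 (adjusted p = 0.0438). These 4 calls were lost with the RA libraries modelled alone and without RA control replicate 2 or either replicate of the knockdown. That of Slc7a1 was also lost without RA control replicate 1. Over all alternatives, 21 recomputed values of these calls lost the call and 19 kept it, so further settings also ended some.

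Of 18 endoplasmic reticulum chaperone, IRE1 and ATF6 target genes, 15 had lower values with shPou3f3os, 13 with shNr2f1as and 12 with shSox21os, and of 16 NRF2 target genes 14, 8 and 10 did. The list medians were -0.27, -0.15 and -0.06 for the endoplasmic reticulum genes with shPou3f3os, shNr2f1as and shSox21os, and -0.28, -0.08 and -0.12 for the NRF2 targets. In both lists 0 genes passed limma's test in any RA knockdown, which in lists this short is near the shares of all entries given above. Without RA control replicates 1 and 2 the medians with shSox21os were -0.15 and -0.01 for the endoplasmic reticulum genes and -0.215 and -0.05 for the NRF2 targets. With shNr2f1as the endoplasmic reticulum median was -0.26 without RA control replicate 1. The NRF2 median with shNr2f1as was -0.21 and -0.04 without RA control replicates 1 and 2, and -0.03 and -0.05 without shNr2f1as replicates 1 and 2.

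NRF2 is also known to activate Slc7a11. Its gene, Nfe2l2, had 13.2 and 10.4 FPKM with shNr2f1as, 14.5 with shSox21os and 8.33 and 9.50 with shPou3f3os, against 7.83 and 8.53 FPKM in the controls. The shNr2f1as and shSox21os libraries lay above both controls and the shPou3f3os libraries overlapped with them. The part of NRF2 in the Slc7a11 values was not tested.

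Marker genes of cell types were also read in the RA libraries. At most 2 genes of any list had all 5 knockdown libraries on 1 side of both controls. For comparison, all 5 lay above both controls for 15.8% of all entries tested and below both for 12.6%. The summed level of 5 fibroblast and feeder markers was 18.3 to 47.1 FPKM in the RA knockdown libraries and 9.75 and 11.2 FPKM in the controls, with 2 of the 5 genes, Col1a1 and Col1a2, above both controls in all 5 libraries, while Col3a1 and Postn were under 0.1 FPKM throughout. The sum of 4 neuron markers was 112 to 195 FPKM in the knockdown libraries and 87.5 and 94.0 FPKM in the controls, and Dcx was under 0.1 FPKM throughout. Of these, Stmn2 alone was above both controls in all 5 libraries, with 73.4 to 140 FPKM in the knockdown libraries and 42.1 and 34.3 FPKM in the controls. Tubb3 was below both controls in 4 of the 5 libraries, with 29.3 to 51.4 FPKM in the knockdown libraries and 48.6 and 49.7 FPKM in the controls, and Elavl3 overlapped with the controls. Neural progenitor markers (5 genes) summed to 284 to 368 FPKM in the knockdown libraries and 301 and 382 FPKM in the controls. Pluripotency markers (8 genes) summed to 145 to 513 FPKM in the knockdown libraries and 132 and 666 FPKM in the controls, so the 2 controls stood at both ends. Primitive streak and mesoderm markers (6 genes) summed to 2.20 to 12.4 FPKM in the knockdown libraries and 2.58 and 3.005 FPKM in the controls, and Tbx6 was above both controls in all 5. Definitive endoderm markers (4 genes) summed to 3.27 to 6.26 FPKM in the knockdown libraries and 3.57 and 7.42 FPKM in the controls, and Sox17 was below both controls in all 5. Blood and macrophage markers (4 genes) summed to 4.82 to 13.8 FPKM in the knockdown libraries and 6.64 and 10.2 FPKM in the controls, with Ptprc, Csf1r and Lyz2 under 0.1 FPKM in all of them. The part of these cell types in the results was not tested.

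Across all 19 libraries, the genes whose levels were most like the mean of the 10 genes, by Pearson's r over z-scores among 12178 candidates, were Zfp715 (r = 0.78), Stc2 (0.69), Mycbp (0.69), Hsp90b1 (0.67) and Aars (0.67). Zfp715 lay between 0.498 and 1.43 FPKM in the 19 libraries, close to the expression filter of 1 FPKM. Stc2 had 3.33 to 4.66 FPKM in the RA knockdown libraries and 7.39 to 10.5 FPKM in the controls. Hsp90b1 had 109 to 132 FPKM in the knockdown libraries and 160 to 170 FPKM in the controls. The genes most like Slc7a11 were Jkamp (r = 0.98), Ginm1 (0.97), Esd (0.97), Gpx8 (0.96) and Actr10 (0.96). Each was higher in the RA knockdown libraries than in the RA controls, for instance Gpx8 at 2.94 to 5.34 FPKM in the knockdown libraries and 0.555 to 1.01 FPKM in the controls. These correlations are descriptions over 12 groups in which 2 culture systems differ. The genes were chosen for this likeness over the same libraries, so their order in the RA libraries follows largely from that choice.

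The LIF-withdrawal knockdowns each had controls of their own. With shFendrr, shEvx1as and shEVX1, 0 of 10 genes passed limma's test, where 0.147% of all entries passed with shFendrr and 0.00669% with each of shEvx1as and shEVX1. An unadjusted p under 0.05 was found for 2, 1 and 0 of the 10 genes with shFendrr, shEvx1as and shEVX1, and for 7.03%, 4.38% and 3.32% of all entries. The median change over the 10 genes was 0.11, 0.03 and 0.01 for shFendrr, shEvx1as and shEVX1, against 0.00, 0.05 and 0.05 over all entries, and none of the 5 pathway lists held a gene that passed. These small medians moved with single libraries. For shFendrr the median was 0.37 and 0.04 without shFendrr replicates 2 and 1, and 0.01 and 0.29 without its control replicates 1 and 2. It was 0.12 for shEvx1as without shEvx1as replicate 1, and 0.09 and 0.045 for shEVX1 without shEVX1 replicates 1 and 2. After scaling by the median of ratios it was -0.02 for shEvx1as and -0.06 for shEVX1.

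Atf4 was higher in every knockdown library than in its controls in these 3 experiments. It had 95.0 and 98.1 FPKM with shFendrr, against 68.4 and 76.7 FPKM in its controls (difference 0.41, SE 0.13, limma adjusted p = 0.534). With shEvx1as it had 51.9 and 52.9 FPKM, against 44.8 FPKM in the control, and with shEVX1 93.3 and 111 FPKM, against 89.2 FPKM in the control (differences 0.22 and 0.19, adjusted p = 1 for both). Such a side is common here, since all knockdown libraries lay above their controls for 14.4% of entries with shFendrr, 44.6% with shEvx1as and 46.7% with shEVX1.

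Sesn2 had 27.6 and 38.4 FPKM with shFendrr, against 18.5 and 24.5 FPKM in its controls (difference 0.59, limma adjusted p = 0.563). Ddit3 had 13.0 and 12.8 FPKM with shEvx1as, against 7.90 FPKM in its control (difference 0.65, adjusted p = 1). Slc7a11 had 9.87 and 13.6 FPKM with shFendrr, against 8.96 and 12.7 FPKM in its controls, and the groups overlapped. It had 5.58 and 4.78 FPKM with shEvx1as, against 4.21 FPKM in the control, and 7.65 and 6.27 FPKM with shEVX1, against 3.99 FPKM in the control (differences 0.24 and 0.67, adjusted p = 1 for both). The replicates of shFendrr were uneven, and 3 of the 10 genes differed at least 2-fold between them. Trib3 had 7.33 and 3.20 FPKM, Chac1 5.84 and 1.66 FPKM and Nupr1 5.54 and 2.47 FPKM in shFendrr replicates 1 and 2.

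Cebpb had 20.2 and 20.0 FPKM with shFendrr, against 22.8 and 26.3 FPKM in its controls, and 19.2 and 17.3 FPKM with shEvx1as, against 23.0 FPKM in its control. Both differences were small (-0.27 and -0.32) and did not pass (limma adjusted p = 0.760 and 1). Nupr1 was nearly the same in both shEVX1 libraries, 1.30 and 1.27 FPKM, against 2.98 FPKM in the control (difference -0.80, adjusted p = 1). Ddit4 had 97.6 and 96.6 FPKM with shEvx1as, against 125 FPKM in its control (difference -0.36, adjusted p = 1). Asns had 162 and 108 FPKM with shFendrr, against 123 and 121 FPKM in its controls (difference 0.12, adjusted p = 0.931). Its shFendrr libraries thus lay on both sides of the controls.

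**Figure D3:**
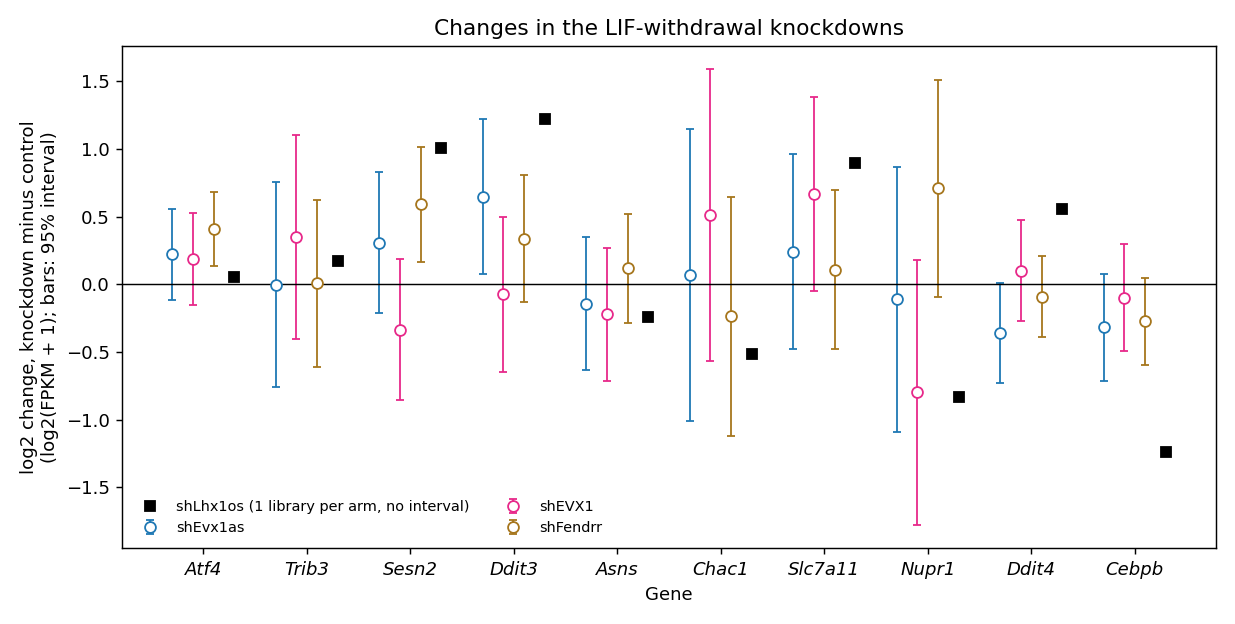
Change of each gene in the 4 LIF-withdrawal knockdowns against their own controls, in log2(FPKM + 1), with bars for the unadjusted 95% interval where there was a test and squares for the shLhx1os pair, which has none. The Atf4 differences lie between 0.05 and 0.41, and the largest are those of the shLhx1os pair for Ddit3 and Cebpb.

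For shLhx1os there is a single library on each side and no test was made, so the values compare those libraries and not the conditions. Among entries with at least 5 FPKM in one library, 13.4% differed at least 2-fold, against 0.684 to 5.73% between replicates of the groups of 2. Of the 10 genes, 8 reached 5 FPKM and 3 of these differed at least 2-fold. Trib3 and Chac1 did not reach it. Sesn2 had 46.5 FPKM in the shLhx1os library and 22.6 FPKM in the control, 2.06-fold higher, and Ddit3 22.2 FPKM in the shLhx1os library and 8.97 FPKM in the control, 2.48-fold higher. Cebpb had 21.7 FPKM in the shLhx1os library and 52.5 FPKM in the control, a ratio of 0.413. Slc7a11 fell just short of this size at 15.4 FPKM in the shLhx1os library and 7.79 FPKM in the control, a ratio of 1.97. Atf4 was nearly equal, with 66.1 FPKM in the shLhx1os library and 63.7 FPKM in the control. Of the others, Ddit4 had 95.6 FPKM in the shLhx1os library and 64.9 FPKM in the control, and Nupr1 7.97 FPKM in the shLhx1os library and 14.9 FPKM in the control.

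The control libraries allow the set to be compared between culture systems, here the RA control at day 4 minus the LIF-withdrawal control at day 5. These differ in cell line, medium, factor and day, whose parts cannot be told apart. Of the 10 genes, 7 passed limma's test, where 59.9% of all entries did, so passing is near the background. Sesn2 (difference 1.86), Nupr1 (2.48), Chac1 (1.17) and Atf4 (0.88) were higher in the RA control, with adjusted p = 1.6e-05, 0.000173, 0.0261 and 0.000143. Slc7a11 (-3.13), Cebpb (-1.57) and Asns (-1.53) were lower, with adjusted p = 4.4e-06, 7.9e-06 and 4.2e-05. The Chac1 call was lost without any 1 of 3 libraries, RA control replicate 1, RA control replicate 2 or Fendrr control replicate 1 (adjusted p = 0.0791, 0.0782 and 0.158).

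Atf4 averaged 134 ± 1.22 FPKM in the RA controls and 72.6 ± 5.86 FPKM in the day 5 controls, and Sesn2 80.2 ± 2.50 FPKM in the RA controls and 21.5 ± 4.24 FPKM in the day 5 controls (SD, n = 2 each). Slc7a11 averaged 0.367 ± 0.387 FPKM in the RA controls and 10.9 ± 2.68 FPKM in the day 5 controls, and Asns 41.6 ± 1.47 FPKM in the RA controls and 122 ± 1.01 FPKM in the day 5 controls (SD, n = 2 each). Thus, relative to the day 5 controls, Slc7a11 and Asns stood low and Atf4 high in the same RA control libraries. For some genes the other LIF-withdrawal controls differed from those of day 5. Asns had 59.1, 51.1 and 57.1 FPKM in the Evx1as, EVX1 and Lhx1os controls, and Sesn2 56.8, 49.5 and 22.6 FPKM. Nupr1 had 3.61, 2.98 and 14.9 FPKM in these, and the Lhx1os control lay between the RA controls. The size of these differences thus depends on the control taken.

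**Figure D4:**
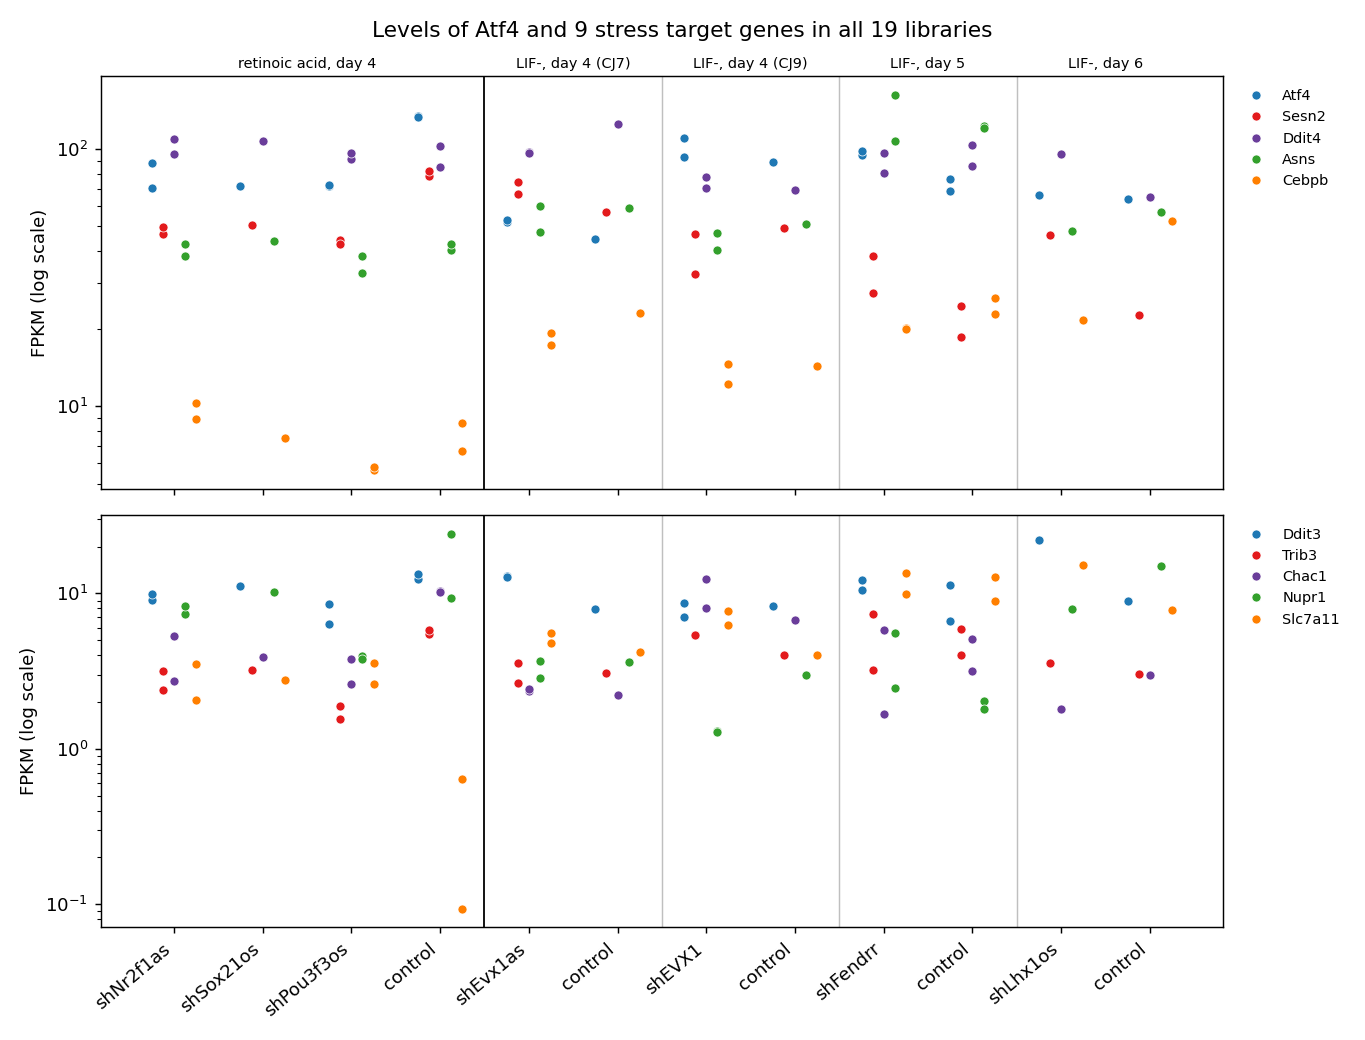
Levels of the 10 genes in all 19 libraries, in FPKM on a log scale, with 1 point per library and each knockdown left of its control. Atf4 is highest in the 2 RA controls, and Slc7a11 is lowest there.

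Ordered over the 19 libraries, Atf4 was highest in the RA controls (135 and 133 FPKM), followed by shEVX1 (93.3 and 111 FPKM) and shFendrr (95.0 and 98.1 FPKM), whose ranges overlapped. The RA knockdown libraries, at 70.5 to 88.3 FPKM, overlapped with the LIF-withdrawal controls, at 44.8 to 89.2 FPKM, and the lowest Atf4 level was that of the Evx1as control. Slc7a11 ran from 2.06 to 3.56 FPKM in the RA knockdown libraries, above the RA controls and below every LIF-withdrawal library, where it had 3.99 to 15.4 FPKM. Cebpb was lower in every RA library (5.64 to 10.3 FPKM) than in every LIF-withdrawal library (12.2 to 52.5 FPKM). Ddit4 varied least, with 64.9 FPKM in the Lhx1os control as its lowest level and 125 FPKM in the Evx1as control as its highest, a ratio of 1.92.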

How the data were processed

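The authors deposited 1 table of FPKM values for 19 libraries. Per the labels' protocols, RNA was extracted with TRIzol, mRNA was isolated with Dynabeads and libraries were made with the TruSeq Stranded mRNA kit. The tools named per the submitters' processing notes are CASAVA and TopHat2 2.0.11, and the builds mm10 and mm9. The quantifier, annotation and use of strand were not given in the sources used here. Of 18913 coding symbols matched to GRCm38, 4.6% ended within 1000 bases of their position there, and 116 entries lie on random chromosomes, so table positions are given as mm9, with starts counted from 1. Read counts were not used here, absolute depth is unknown and no sampling interval was computed. Relative depth came from low loci, where 17.1 to 29.8% of values matched the step to within 0.02 (log2).

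The 14942 entries that reached 1 FPKM in 2 or more libraries were analysed as log2(FPKM + 1) with limma 3.58.1 in R 4.3.3, with 1 mean for each of 12 groups, 7 residual degrees of freedom and a prior for the variance that depends on mean expression. Groups of 1 library are assumed to vary like the others. The code was tested on simulated data. All 10 genes were named in every comparison. From each of 5 pathway lists up to 4 genes that passed with no overlap of libraries were to be named, and the 5 named genes most like the 10 genes and most like Slc7a11. Named pathway genes of the culture comparison are given under the other observations. There, fewer than 4 were named from every list although more qualified, and none from the endoplasmic reticulum list. The genes, lists and rules were chosen with earlier results of these data known. Alternatives were a pseudocount of 0.1, no expression filter, 2 rescalings, each experiment modelled alone, the replicate number as a block and leaving out each replicate. In the setting modelled alone, the shEvx1as and shEVX1 experiments were fitted together. No 2 libraries held identical values.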

Additional observations from a re-analysis of the deposited data

How the results depend on the processing

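The 53 differences of the 10 genes given for the tested comparisons were recomputed under every alternative. Leaving out 1 library kept direction and side of the threshold in 139 values, lost the call in 24, gained one in 2 and changed the sign in 11, and the other settings did so in 283, 15, 3 and 2. The sign changes under the other settings were Cebpb with shSox21os (0.084 with the replicate block) and Ddit4 with shPou3f3os (-0.044 by the median of ratios), and no difference that had passed the test changed sign. Without 1 library, the ranges that crossed 0 were -0.18 to 0.41 for Asns with shFendrr, -0.11 to 0.042 for Asns and -0.014 to 0.26 for Ddit4 with shNr2f1as, -1.18 to 0.11 for Nupr1 and -0.17 to 0.15 for Cebpb with shSox21os, and -0.14 to 0.14 for Ddit4 with shPou3f3os. For shNr2f1as against shPou3f3os they were -0.033 to 0.29 for Atf4 and -0.41 to 0.15 for Slc7a11. The named pathway genes and the medians of the pathway lists were recomputed in the same way, a choice made after seeing the data: for the named genes, 72 of 72 values of the culture comparison kept their call, against 19 kept and 21 lost in the RA knockdowns. For the 10 genes, shNr2f1as had 0 to 3 calls without 1 library, 0 with no filter and 0 with the RA libraries modelled alone; shSox21os had 0 to 1 without 1 library and 1 with no filter; shPou3f3os had 0 to 4 without 1 library, 1 with no filter and 0 modelled alone. Calls over all entries without 1 library ran from 2 to 4 for shEvx1as, 0 to 0 for shEVX1, 2 to 231 for shFendrr, 43 to 391 for shNr2f1as, 29 to 186 for shSox21os, 0 to 1240 for shPou3f3os and 1 to 5 for shNr2f1as against shPou3f3os. For shPou3f3os the count was 1240 without RA control replicate 1, 21 without RA control replicate 2, and 0 and 3 without shPou3f3os replicates 1 and 2. With no filter, calls were 213 for shEvx1as, 136 for shEVX1, 87 for shFendrr, 47 for shNr2f1as, 216 for shSox21os, 161 for shPou3f3os and 18 for shNr2f1as against shPou3f3os. Modelled alone, shEvx1as, shEVX1, shFendrr, shNr2f1as, shPou3f3os and shNr2f1as against shPou3f3os each had 0 calls by limma, with 1227, 1055, 532, 2566, 2906 and 750 entries at an unadjusted p under 0.05; this fit has fewer samples to estimate the spread. With a pseudocount of 0.1, calls were 0 for shEvx1as, 0 for shEVX1 and 1 for shFendrr. The cause of the other changes was not tested. With the replicate block, calls were 331 for shNr2f1as and 813 for shPou3f3os, with 3 and 6 of the 10 genes. Sesn2 with shNr2f1as and Ddit3 with shPou3f3os were gained (limma adjusted p = 0.0498 and 0.0370). The median change of the 10 genes with shSox21os was then -0.20. Same-numbered deviations correlated at 0.35 for shFendrr, 0.30 for shNr2f1as and -0.02 for shPou3f3os with their controls, over 2 pairs each. The labels give only a shared number, and these values cannot settle whether same-numbered libraries form pairs. Depth is unknown, and values under 1 FPKM, such as Slc7a11 in the RA controls, are the least precise.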

Other observations

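Genes around the pathway were also compared between the RA control at day 4 and the LIF-withdrawal control at day 5, where 59.9% of all entries passed limma's test. In 4 of the 5 pathway lists a smaller share of the genes passed than of all entries, so these counts do not set the lists apart. Of 17 genes for eIF2 kinases, eIF2 and eIF2B subunits and the phosphatase, 4 passed higher and 8 lower in the RA control (70.6%). Eif2b3, a subunit of the eIF2 exchange factor, differed by -1.69 on the log2 scale (adjusted p = 2.0e-05), Eif2s3x differed by -1.49 (adjusted p = 1.4e-05) and Eif2ak2, the double-stranded RNA kinase PKR, by -1.28 (adjusted p = 2.8e-05). Of 13 bZIP genes, 1 passed higher and 4 lower (38.5%). Atf5, a close relative of Atf4, had 70.9 and 73.1 FPKM in the RA controls and 14.1 and 16.7 FPKM in the day 5 controls (difference 2.16, adjusted p = 3.4e-05), whereas Nfe2l2, which encodes NRF2, differed by -1.77 (adjusted p = 2.5e-06).

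Of 33 further ATF4 targets, 5 passed higher and 7 lower in the RA control (36.4%). Slc7a3, a cationic amino acid transporter, had 2.37 and 1.90 FPKM in the RA controls and 14.7 and 19.1 FPKM in the day 5 controls (difference -2.50, limma adjusted p = 1.1e-05). Cth, which makes cysteine, had 10.1 and 9.41 FPKM in the RA controls and 43.3 and 41.3 FPKM in the day 5 controls (difference -2.01, adjusted p = 7.2e-06). Among 18 endoplasmic reticulum genes 7 passed higher and 3 lower (55.6%), and among 16 NRF2 targets 3 passed higher and 5 lower (50%). Prdx1, a peroxiredoxin, had 8.17 and 11.2 FPKM in the RA controls and 146 and 226 FPKM in the day 5 controls. Cell line, medium, factor and day cannot be told apart in this comparison.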
